A study of Mus musculus with 2 samples.

Results

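The 38 genes described here encode proteins that copy DNA or are made for S phase, the stage of the cell cycle in which the genome is duplicated. They were chosen by name, as the genes of a fixed list of replication and S-phase symbols, and all 38 were found among the 31253 genes of the count tables. RNA of single thymocytes was counted in 1 library from wild-type mice (WT) and 1 library from mice of genotype SETDBf/fCD4-Cre (cKO). Thymocytes of both genotypes had been enriched with anti-CD25 beads, and the chemistry was the 10x Genomics 3′ v3.1 kit. The label does not say which SETDB gene carries the floxed alleles, and the number, age and sex of the mice behind each library are not given. Cre is driven here by a CD4 promoter, which is known to become active in thymocytes late in the double-negative (DN) stage. CD25, the target of the beads, is found on DN thymocytes and on regulatory T cells. With 1 library per genotype there were no replicates. No test between genotypes was therefore possible, and every interval below is a 95% interval for counting error only, which covers no difference between mice, bead enrichments or captures. Intervals on levels also treat UMIs as independent. They are too narrow where a few cells hold many of the UMIs.

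Replication starts at origins, where the proteins Cdc6 and Cdt1 load rings of the 6 proteins Mcm2 to Mcm7 onto DNA before S phase. Cdc45 and the GINS complex turn these rings into active helicases, polymerases copy the strands, and the sliding clamp Pcna holds them in place. E2F factors switch on most of these genes as a cell passes from G1 into S phase, once cyclin-dependent kinases have inactivated the retinoblastoma proteins. In the thymus, large cycling blasts arise after successful rearrangement of the T-cell receptor β chain, when DN cells divide repeatedly and gain Cd8 and then Cd4. The small double-positive (DP) cells that follow have left the cycle and rearrange the α chain.

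Cells were assigned to 6 gates by the raw counts of unique molecular identifiers (UMIs) of marker genes, none of which belongs to the 38. The DN gate held 1928 WT and 1432 cKO cells with no Cd8 UMI, at least 2 UMIs of early genes such as Ptcra and Il2ra, and few UMIs of mitosis genes. Cycling cells took at least 0.05% of their UMIs, and at least 3 UMIs, from 24 genes of late S phase, G2 and mitosis such as Mki67, Top2a and Ccnb1. They were split into a Cd8-negative gate without Cd8a or Cd8b1 UMIs (880 WT and 723 cKO cells) and a Cd8-positive gate with at least 2 of these UMIs (583 and 515 cells). The DP gate (1951 and 2877 cells) required Cd8 and Rag1 UMIs. The agonist gate (360 and 388 cells) required Trac and genes induced by strong receptor signals such as Tnfrsf4 and Ikzf2, and the Foxp3-positive gate (330 and 320 cells) required 1 UMI of Foxp3, the lineage factor of regulatory T cells. Of 20 check genes outside the gate rules, 17 were highest in the gate they mark in both libraries. Levels are given as CPM, the UMIs of a gene per 1000000 UMIs of the summed cells of a gate. Notch1 stood at 484 and 420 CPM in the DN gate of WT and cKO and at most 200 elsewhere. Cd4 stood at 507 and 587 CPM in the DP gate and at 1.22 and 2.01 in the DN gate. Cd5, which follows receptor signal strength, stood at 383 and 307 in the agonist gate, and Ctla4 at 284 and 318 in the Foxp3-positive gate. The 3 exceptions were the DN check Il7r (92.1 in DN and 113 in Foxp3-positive cells of cKO) and the agonist checks Cd69 (149 and 200 in agonist, 238 and 274 in Foxp3-positive cells) and Bcl2l11 (102 and 104 in agonist, 125 and 138 in DP cells).

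The WT library held 89370968 UMIs over 7852 barcodes and the cKO library 76668166 over 8461. After filtering, 6990 WT and 7346 cKO cells remained, with medians of 7700.5 and 4629.5 UMIs. The libraries shared 16 barcodes. Setdb1 stood at 20.8 to 34.8 CPM over the 6 gates in WT and at 23.3 to 31.8 in cKO, and Setdb2 at 2.95 to 8.21 and 5.85 to 10.5. A 3′ count may lie outside the deleted part of either gene and checks nothing about the deletion. Of the genes checked for other cells, the red cell genes Hba-a1 and Hbb-bs were near 0 in every gate and Gzmb, a protease of cytotoxic cells, stood at most at 9.83 CPM. Nkg7, found in cytotoxic and natural killer cells, stood at 197 and 169 CPM in DN and 166 and 184 in agonist cells, and the epithelial gene Epcam at 97.6 and 125 in DN cells. Their part in the results was not tested.

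Promoter letters are shown because the members are textbook targets of E2F factors. RefSeq promoter windows on mouse build GRCm38.p6, running from 250 bases before to 50 bases after a start site, were found for 33 of the 38 genes (38 windows). Pole, Mcm4, Rfc2, Ccne2 and Gins2 had no entry. The E2F-type letters TTTGGCGC, TTTCGCGC, TTTCCCGC or TTTGGCGG occurred on either strand in 16 of the 38 windows (42.1%), against 777 of all 32851 windows of the table (2.37%). The letters CCAAT occurred in 22 of 38 member windows (57.9%) against 37.4% of all windows. The letters TTTGAA or TTCGAA, found in promoters of many mitosis genes, occurred in 5 of 38 (13.2%) against 19.2%. A match describes letters only and is no evidence of a bound site. The lines below give the stretch around the E2F-type letters, in capitals, for members that recur in the results, each read 5′ to 3′ on the strand of the gene and ending before its start site. The first 2 hold overlapping matches on both strands, and the Mcm6 stretch holds another one closer to the start.
Mcm5, chr8:75109341-75109382, plus strand: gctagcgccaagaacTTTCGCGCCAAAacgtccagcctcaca
Mcm6, chr1:128359730-128359830, minus strand: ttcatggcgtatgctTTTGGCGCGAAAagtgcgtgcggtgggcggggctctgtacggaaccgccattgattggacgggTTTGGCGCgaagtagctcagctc
Cdc6, chr11:98907998-98908035, plus strand: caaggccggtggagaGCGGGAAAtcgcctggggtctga
Clspn, chr4:126556844-126556881, plus strand: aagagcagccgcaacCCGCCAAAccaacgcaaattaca
Rfc3, chr5:151651209-151651233, minus strand: agtgacgtcgcacgcTTTCGCGCtc
Chaf1a, chr17:56040357-56040394, plus strand: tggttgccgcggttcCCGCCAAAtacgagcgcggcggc
Pola1, chrX:93632271-93632308, minus strand: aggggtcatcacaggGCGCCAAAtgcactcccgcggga
Uhrf1, chr17:56304113-56304150, plus strand: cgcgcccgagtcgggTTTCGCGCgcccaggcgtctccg

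Among the gates as defined, the members were highest in the 2 cycling gates and lowest in the DP gate in both libraries. Summed over all 38 genes, they stood at 7648 CPM in cycling Cd8-negative cells of WT and 7395 in those of cKO. In cycling Cd8-positive cells the sums were 7601 and 7602. The DN gate followed with 2371 and 2584, the Foxp3-positive gate with 2156 and 1912, and the agonist gate with 1724 and 1705. DP cells stood at 1501 in WT and 1086 in cKO. Unlike the DN, DP and agonist gates, the Foxp3-positive gate kept its cycling cells (40 in WT and 20 in cKO). Its other cells summed to 906 and 973 CPM, below the DP gate. Each of the 38 members stood higher in both cycling gates than in any other gate, in WT and in cKO. The lowest gate was DP for 22 members in WT and 34 in cKO. UMIs were counted at 3′ ends and not divided by length, so levels are compared between cells, and not between genes.

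**Figure D1:**
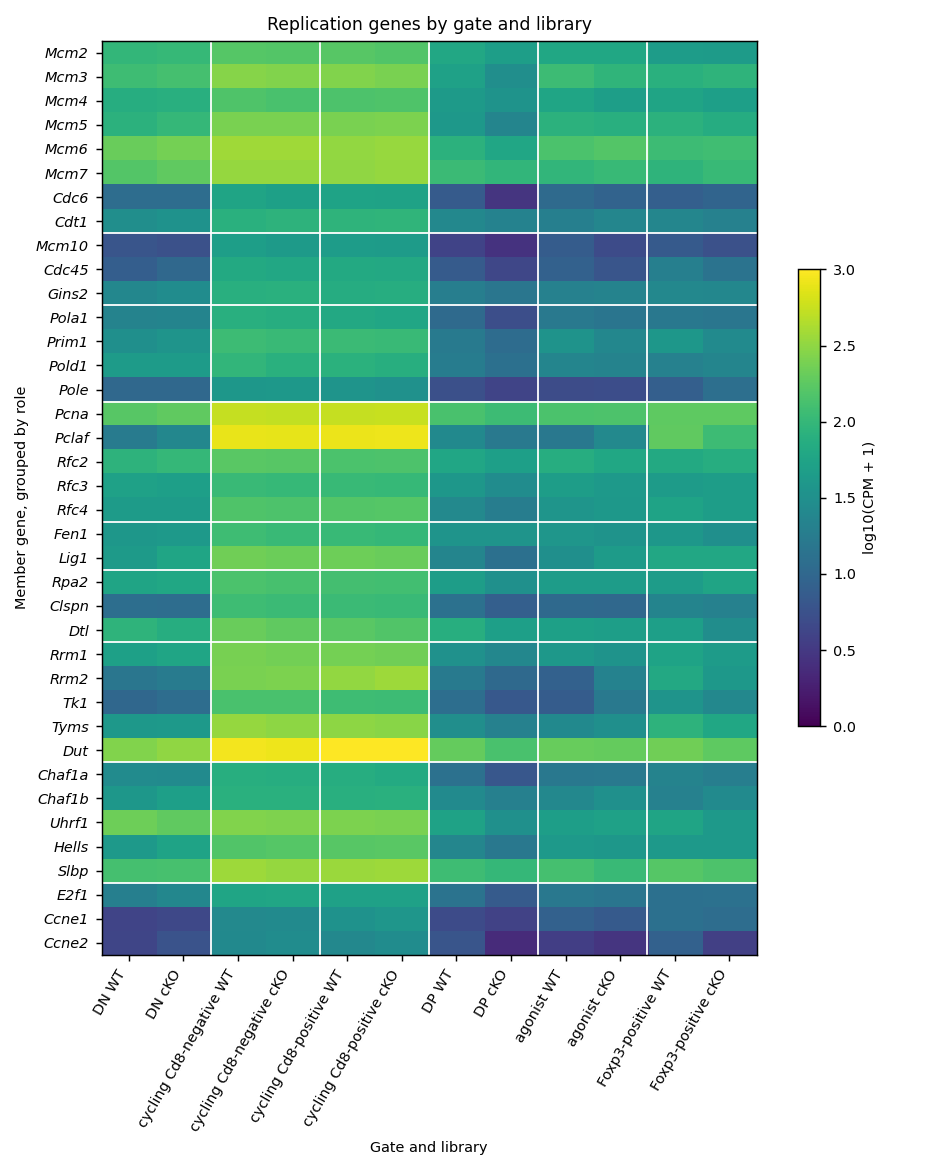
CPM of each of the 38 genes (rows, grouped by role with white lines) in the 6 gates of the WT and cKO libraries (columns), on a log10 scale after adding 1. The 4 cycling columns are the brightest in every row, the DP column of cKO is the darkest in most, and Uhrf1 is nearly as bright in the DN columns as in the cycling ones.

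Cycling cells were set against the resting gate of the same Cd8 status within each library. All 38 members were higher in cycling Cd8-negative cells than in DN cells in both libraries. The median log2 ratio over the members, with 5 CPM added to each level, was 1.56 in WT and 1.36 in cKO, where the median over all genes tested was −0.12 and −0.11. At least 2-fold higher were 31 of 38 members in WT, where 3.48% of all genes tested were, and 29 of 38 in cKO, where 3.19% were. None was 2-fold lower, where 3.38% and 2.48% of all genes were. Against DP cells, all 38 members were at least 2-fold higher in cycling Cd8-positive cells of WT (7.77% of all genes) and of cKO (8.73%), and 18.6% and 21.2% of all genes were at least 2-fold lower. The medians there were 2.14 and 2.61, and those of all genes −0.29 and −0.34. In the DP gate, few cells with over 10000 UMIs held 51.0% of the member UMIs in WT and 23.9% in cKO. Their part in these ratios was not tested. Cycling cells also held more RNA, with median UMI counts of 25784.5 and 24292 (Cd8-negative) and 31327 and 28315 (Cd8-positive) against 9087 and 9084.5 in the DN and 2486 and 2257 in the DP gate. Counted as UMIs per cell rather than as CPM, the 4 median log2 ratios were 3.05, 2.78, 5.72 and 6.58.

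Of the 5 genes with the largest ratios, 4 were shared by the comparisons. Pclaf, a small Pcna-binding protein, led both, with a mean log2 ratio over the libraries of 4.99 against DN and 5.07 against DP. In WT it stood at 790 CPM in cycling Cd8-negative cells and 16.9 in DN cells, a ratio of 46.7 (41.9 to 52.2). In cKO the ratio was 33.4 (30.0 to 37.2). Rrm2, the regulated subunit of ribonucleotide reductase, followed with mean log2 ratios of 3.66 and 4.33. Tk1, the thymidine kinase of S phase, gave 3.25 and 3.19, and Tyms, which makes thymidylate, 2.87 and 3.40. The gene that differed was Clspn, an adaptor of the replication checkpoint, against DN (2.89), and Lig1, the ligase that seals Okazaki fragments, against DP (3.33). Of these 6 genes, 3 serve nucleotide supply.

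The smallest ratios differed more between the comparisons. Against DN cells they were Uhrf1, which reads newly copied methylated DNA, with a mean log2 ratio of 0.40, Mcm2 (0.65), Mcm6 (0.76), the chromatin assembly subunit Chaf1b (0.83) and the clamp loader subunit Rfc2 (0.84). Uhrf1 stood at 218 and 184 CPM in the DN gates of WT and cKO and at 53.1 and 31.5 in the DP gates, while its cycling levels lay between 246 and 273. Its mean log2 ratio against DP cells was therefore 2.48, in the middle of the members. Against DP cells the smallest were Rfc2 (1.33), the ubiquitin ligase receptor Dtl (1.35), the flap nuclease Fen1 (1.42), Mcm2 (1.47) and Rfc3 (1.53).

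**Figure D2:**
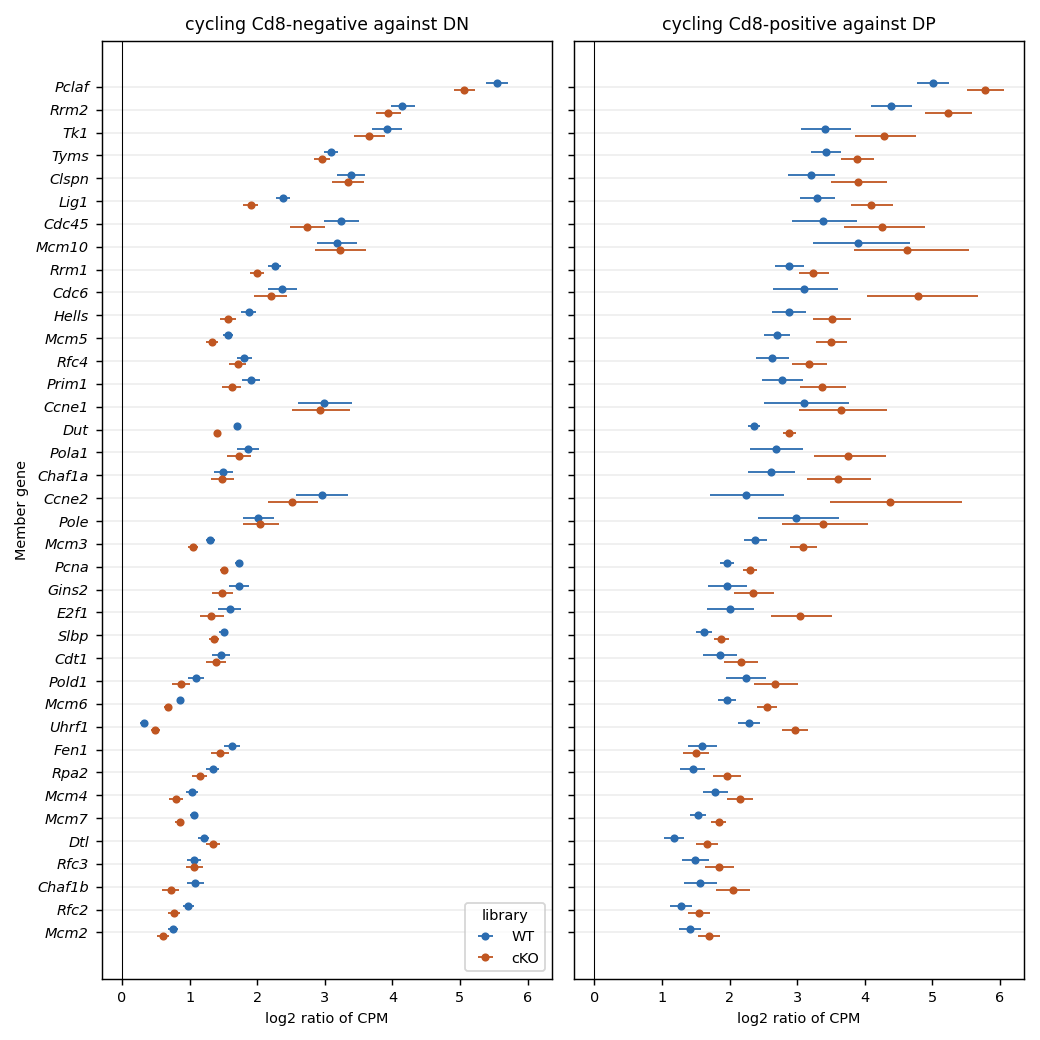
Log2 ratio of CPM, without an added constant, between cycling and resting cells for each of the 38 genes in WT (blue) and cKO (orange), with 95% counting intervals. Every point lies right of 0, Pclaf and Rrm2 lie farthest right in both panels, and Uhrf1 lies near 0 only against DN cells.

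Roles are given by the median log2 ratio against DN in WT and cKO. The 8 licensing genes had medians of 1.16 and 0.93, the lowest of the roles: Mcm2, Mcm3, Mcm4, Mcm6 and Mcm7 lay between 0.58 and 1.27 and Mcm5, Cdc6 and Cdt1 above. The 3 helicase activation genes (Mcm10, Cdc45 and the GINS subunit Gins2) had medians of 2.34 and 2.24. The 4 polymerase and primase genes (Pola1 and Prim1, which start new strands, and the catalytic subunits Pold1 and Pole) had 1.61 and 1.51. Clamp and loader genes (Pcna, Pclaf, Rfc2, Rfc3, Rfc4) had 1.69 and 1.48, and the pair Fen1 and Lig1 1.88 and 1.58. Fork protection and checkpoint genes (the single-strand binding subunit Rpa2, Clspn, Dtl) had 1.27 and 1.29. The 5 nucleotide genes (Rrm1, Rrm2, Tk1, Tyms and the dUTP hydrolase Dut) had the highest medians, 2.94 and 2.81. The 5 chromatin genes (Chaf1a, Chaf1b, Uhrf1, the remodeller Hells and the histone mRNA-binding Slbp) had 1.34 and 1.33. E2f1 and the E-type cyclins Ccne1 and Ccne2, which drive entry into S phase, had 1.87 and 1.73. Among the 55 other replication genes, which include the origin recognition complex and repair factors, 32 in WT and 29 in cKO were at least 2-fold higher in cycling than in DN cells, with medians of 1.13 and 1.02. The highest of them was Fbxo5 (3.53 in WT), and the lowest were Pold4 (−1.05), Orc4 (−0.08) and Mcm9 (0.02). Of 24 G1 regulators tested, 7 were at least 2-fold higher in each library, led by E2f8 (2.90 in WT), and 3 in WT and 1 in cKO at least 2-fold lower, with Ccnd2 lowest (−1.30 in WT).

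Values in every gate follow for 8 members of different roles. Mcm2 (ENSMUSG00000002870), a subunit of the helicase ring, stood at 96.9 CPM in WT and 102 in cKO in the DN gate, 163 and 155 in cycling Cd8-negative, 164 and 152 in cycling Cd8-positive, 61.5 and 46.8 in DP, 61.0 and 59.8 in agonist, and 44.2 and 43.0 in Foxp3-positive cells. Mcm5 (ENSMUSG00000005410), of the same ring, stood at 83.4 and 98.5, 247 and 247, 251 and 252, 38.7 and 22.2, 83.2 and 77.8, and 82.7 and 71.3 CPM in the same order of gates and libraries. In both libraries the lowest of all gates was thus DP for Mcm5 and Foxp3-positive for Mcm2.

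Pcna (ENSMUSG00000027342), the sliding clamp, stood in that order at 165 and 186, 544 and 528, 538 and 558, 138 and 113, 139 and 146, and 181 and 180 CPM. Slbp (ENSMUSG00000004642), which binds histone mRNAs, stood at 129 and 132, 366 and 339, 356 and 361, 116 and 98.3, 130 and 107, and 160 and 146. For both genes the resting gates lay close together and each cycling gate stood well above them.

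Rrm2 (ENSMUSG00000020649) stood at 13.9 and 16.6, 247 and 254, 330 and 363, 15.7 and 9.68, 7.54 and 20.3, and 63.8 and 38.9 CPM, again in that order. Tyms (ENSMUSG00000025747) stood at 38.9 and 39.8, 331 and 308, 313 and 292, 29.1 and 19.8, 25.6 and 30.2, and 86.5 and 59.9. These nucleotide genes were near the bottom of their range in DN, DP and agonist cells, and the Foxp3-positive gate, which includes cells past the cycling rule, lay between.

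Ccne1 (ENSMUSG00000002068) stood at 3.09 and 3.41, 24.6 and 26.1, 33.1 and 37.0, 3.85 and 2.96, 7.54 and 6.11, and 11.7 and 11.0 CPM. Ccne2 (ENSMUSG00000028212) stood at 3.29 and 4.82, 25.5 and 27.6, 24.5 and 27.9, 5.19 and 1.34, 2.62 and 1.93, and 7.55 and 2.74. Outside the cycling gates Ccne1 rested on 19 to 61 UMIs a gate and library and Ccne2 on 6 to 72, so their resting levels are imprecise.

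The 2 cycling gates were alike in these genes. Cycling Cd8-positive against cycling Cd8-negative cells, a comparison added after the data had been seen, gave a median log2 ratio of −0.04 in WT and −0.03 in cKO, and 0 of 38 members differed 1.5-fold in either direction in either library. Of all genes tested, 0.882% in WT and 1.05% in cKO were at least 1.5-fold higher in Cd8-positive cells, and 3.29% and 4.03% at least 1.5-fold lower. Rrm2 (0.41 in WT and 0.51 in cKO) and Ccne1 (0.37 and 0.44) were the highest, and Dtl (−0.25 and −0.29) and Pola1 (−0.25 and −0.30) were among the lowest. The 24 genes that defined cycling had medians of 0.23 and 0.30 in the same comparison.

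Within each cycling gate, the share of UMIs from 12 late mitosis genes (such as Cdc20, Cenpf and Plk1) was used to split the cells of a library into 3 equal groups. None of the 38 members enters this share. The summed members stood at 8601 CPM in the group lowest in mitosis RNA, 9042 in the middle and 5823 in the highest among cycling Cd8-negative WT cells. In cKO the values were 8459, 8606 and 5610. Cycling Cd8-positive cells gave 9582, 8353 and 5596 in WT and 9507, 8212 and 5778 in cKO. The mitosis-rich group was the lowest in all 4 cases, with a ratio to the mitosis-poor group of 0.677 (0.669 to 0.685), 0.663 (0.654 to 0.672), 0.584 (0.576 to 0.592) and 0.608 (0.599 to 0.617). The mitosis-rich cells were also the deepest, with medians of 28688 to 39379.5 UMIs against 21103 to 25764.5, and the part of depth in these ratios was not tested. A group is a range of a score and no cell type.

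The members differed widely in this comparison. In mitosis-rich cells 35 or 36 of the 38 stood lower in each of the 4 sets, and the interval lay below 1 for 34 or 35. The same counts were not made over all genes, so how far they are particular to the members was not tested. The G1-to-S genes were among the lowest. Ccne2 had a mean log2 ratio of −2.02 over the 4 sets of cells, E2f1 −1.89, Cdc6 −1.69, Chaf1b −1.48, Rfc3 −1.39 and Ccne1 −1.31. E2f1 stood at 91.2 CPM in mitosis-poor and 19.5 in mitosis-rich cycling Cd8-negative cells of WT (ratio 0.214, 0.180 to 0.254). In cKO it stood at 93.7 and 22.3 (0.238, 0.198 to 0.285). Mcm2 to Mcm6 had means between −1.15 and −0.97, and Mcm7 −0.64. Hells (−1.15), Chaf1a (−1.11), Rpa2 (−1.06) and Uhrf1 (−1.04) lay in the same range as Mcm2 to Mcm6, and Gins2 (−1.21) just below it.

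Other members differed less between the mitosis-poor and the mitosis-rich cells. The polymerase subunits Pola1 and Pold1 had means of −0.29 and −0.07, and Rrm2, Tyms and Rrm1 −0.35, −0.02 and 0.06. Pclaf had a mean of 0.21. It stood at 594, 966 and 788 CPM from the mitosis-poor to the mitosis-rich group of cycling Cd8-negative WT cells, a ratio of 1.33 (1.28 to 1.38) between the ends. In cKO it stood at 605, 911 and 791 (1.31, 1.25 to 1.36). The ratio was 1.01 (0.971 to 1.06) and 1.03 (0.984 to 1.07) in cycling Cd8-positive cells. Rrm1 and Tyms, like Pclaf, were highest in the middle group in all 4 sets. The linker histone gene H1f5, which is no member and is copied into RNA in S phase, stood at 362, 654 and 583 in the same WT cells. The 16 members with E2F-type letters in a RefSeq window had a median of −0.97 and the 17 without −0.66, a description of genes with mixed roles. For cycling over resting cells the medians with and without the letters were 1.32 and 1.62 against DN, and 2.48 and 2.58 against DP. Ranking the cells by the whole list of 24 cycling genes brought the 4 medians over all members from −0.69, −0.68, −0.98 and −0.89 to −0.27, −0.28, −0.61 and −0.55.

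**Figure D3:**
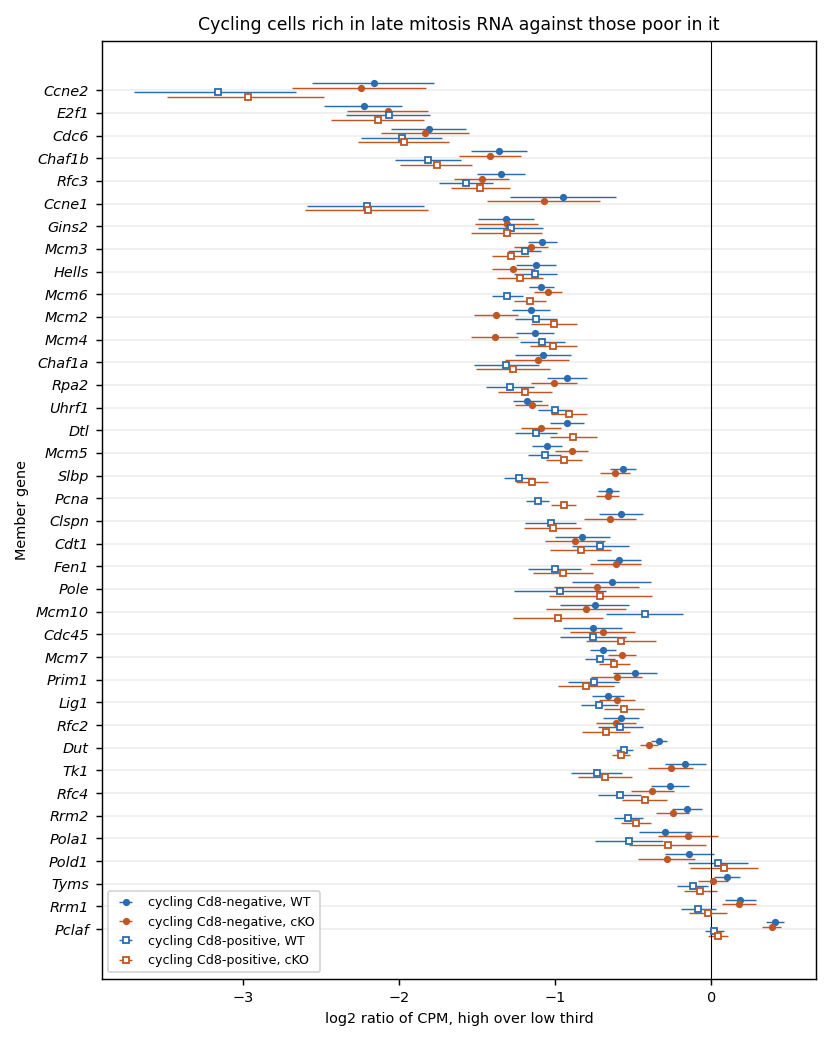
Log2 ratio of CPM between the cycling cells richest and poorest in late mitosis RNA, for each of the 38 genes in 4 sets of cells (filled circles Cd8-negative, open squares Cd8-positive, blue WT, orange cKO), with 95% counting intervals and no added constant. Ccne2, E2f1 and Cdc6 lie farthest left, and Tyms, Rrm1 and Pclaf lie around 0.

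Single cells were compared after each was thinned to 2000 UMIs, so that depth was equal. Cells with at least 5 member UMIs made up 86.4% (84.0 to 88.6) of cycling Cd8-negative cells in WT and 83.9% (81.0 to 86.6) in cKO. In cycling Cd8-positive cells the shares were 87.4% (84.5 to 90.0) and 85.7% (82.3 to 88.6). DN cells followed with 27.7% (25.7 to 29.8) and 31.2% (28.8 to 33.7), agonist cells with 12.7% and 10.8%, Foxp3-positive cells with 9.97% and 9.87%, and DP cells with 6.14% (5.0 to 7.46) and 5.45% (4.48 to 6.56). The interval of the ratio between cKO and WT held 1 in all 6 gates, though only just in DN cells (1.13, 0.991 to 1.28). It treats the cell counts as rates, which makes it too wide for common shares, so it does not show that the shares were equal. Cells under 2000 UMIs were left out, 405 WT and 951 cKO cells in the DP gate and at most 12 in any other. Without thinning, the DP shares were 13.5% and 10.0% and the DN shares 93.5% and 92.4%, because deeper cells reach 5 UMIs more easily.

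Some DN cells held many member UMIs and no counted UMI of a cycling gene. Among DN cells with 0 UMIs of the 24 cycling genes after thinning, 365 of 1401 in WT (26.1%, 23.8 to 28.4) and 300 of 1041 in cKO (28.8%, 26.1 to 31.7) had at least 5 member UMIs. By the same count, 61 WT and 38 cKO cycling Cd8-negative cells, which had passed the cycling rule on their full counts, also stood at 0, so a count of 0 does not show that a cell lacked these RNAs. DP cells at 0 reached 6.13% (4.77 to 7.73) and 4.43% (3.41 to 5.64). The DN share stood above the DP share at equal depth in both libraries, beyond counting error. In thinned cells the median number of member UMIs was 3 in DN and 2 in DP cells of both libraries, and 14 or 15 in cycling cells.

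**Figure D4:**
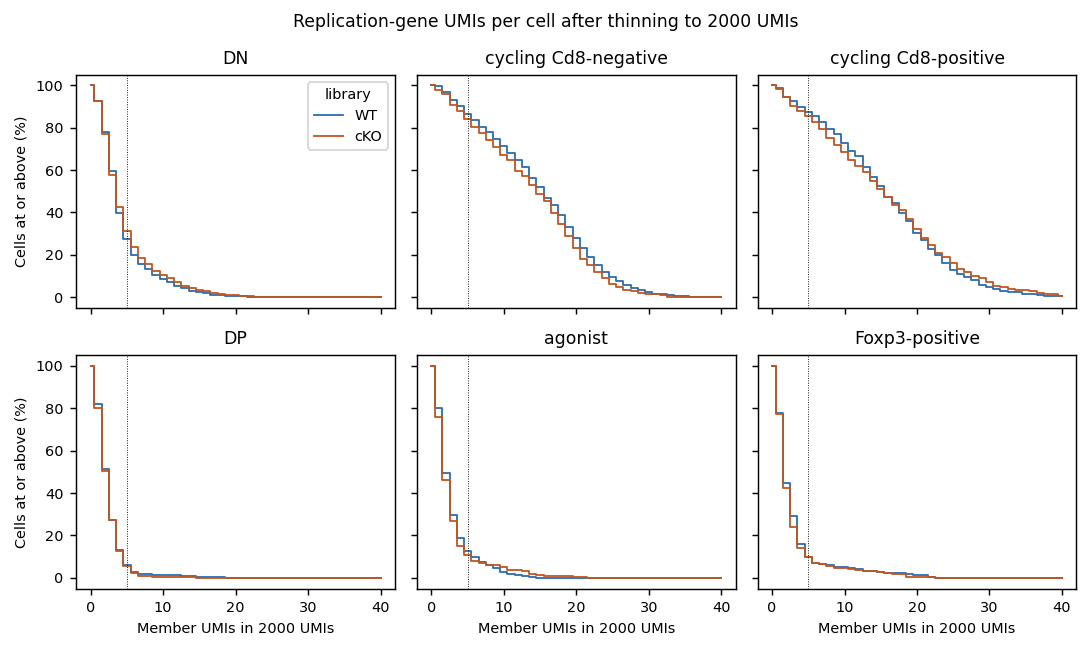
Percentage of cells (y axis) with at least the number of member UMIs on the x axis, after thinning each cell to 2000 UMIs, in 6 gates of WT (blue) and cKO (orange), with a dotted line at 5 UMIs. Cycling cells reach a median of 14 or 15 UMIs, the DN gate has a longer tail than the DP gate, and the libraries nearly overlap in each panel.

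Fewer cells of the cKO library were cycling. Cycling Cd8-negative cells made up 12.6% (11.8 to 13.4) of WT and 9.84% (9.17 to 10.5) of cKO cells, a ratio of 0.782 (0.708 to 0.864). Cycling Cd8-positive cells made up 8.34% (7.70 to 9.01) and 7.01% (6.44 to 7.62), a ratio of 0.841 (0.745 to 0.948). These shares move with all others, since the DP gate took 27.9% of WT and 39.2% of cKO cells, and bead enrichment can set them. At 0.04% to 0.0625% of UMIs, near the cycling rule, stood 271 WT and 210 cKO cells. The minimum of 3 cycling UMIs kept 273 WT and 475 cKO cells out, of which 206 and 392 were in the DP gate. Under the first version of the rule against other lineages, which removed 3487 WT and 2896 cKO cells, the ratios were 0.699 and 1.0.

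Within the cycling gates the members stood at nearly the same level in both libraries. For cKO against WT, the median log2 ratio was −0.05 over the members in cycling Cd8-negative cells, with 13 of 38 above 0, and −0.03 in cycling Cd8-positive cells, with 17 above 0. The medians over all genes were −0.01 in both. No member was 1.5-fold higher or lower in either gate, where 0.234% and 0.251% of all genes were (Cd8-negative, higher and lower) and 0.182% and 0.218% (Cd8-positive). In Cd8-negative cells the 5 highest were Ccne2 (0.10), Cdt1 (0.10), Hells (0.08), Ccne1 (0.07) and Pole (0.04), and the 5 lowest Pold1 (−0.23), Cdc6, Mcm4 and Mcm10 (−0.14 each) and Dtl (−0.13). In Cd8-positive cells the highest were Ccne2 (0.16), Rrm2 and Ccne1 (0.14 each), Mcm6 (0.10) and Mcm7 (0.07), and the lowest Dtl (−0.16), Chaf1a (−0.13), Pola1 (−0.12), Mcm2 (−0.11) and Pold1 (−0.10). The lowest of these ratios, that of Pold1, was 0.846 (0.791 to 0.905) from 2121 and 1458 UMIs. Other replication genes had medians of −0.05 and −0.01, and 0 of 55 differed 1.5-fold in either gate.

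In DN cells 31 of 38 members were higher in cKO, by small amounts. The median log2 ratio was 0.15, where that of all genes was −0.03 and that of 55 other replication genes 0.07. No member was 1.5-fold higher (0.289% of all genes) or lower (0.383%). The highest were Lig1 (0.39), Pclaf (0.36), Hells (0.35), Chaf1b (0.33) and the helicase cofactor Cdc45 (0.27). The lowest were Dtl (−0.25), Uhrf1 (−0.24), Mcm10 (−0.10), Rfc3 (−0.05) and Clspn (−0.02). Lig1 stood at 42.6 CPM in WT and 57.2 in cKO (ratio 1.35, 1.22 to 1.48), and Dtl at 88.2 and 73.1 (0.829, 0.768 to 0.895). The direction of the median depended on which cells were kept: it was −0.12 under the first version of the other-lineage rule. The 24 cycling genes, whose level in this gate is limited by the gate rule, summed to 169 and 168 CPM, with a median log2 ratio of 0.05 and 14 of 23 tested above 0.

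Summed DP cells showed the largest difference between the libraries. All 38 members were lower in cKO, with a median log2 ratio of −0.45 where that of all genes was 0.02, and 10 of 38 were at least 1.5-fold lower, as were 0.791% of all genes. No member was 1.5-fold higher (0.734% of all genes). Among members with at least 100 UMIs, Mcm3 (−0.72), Chaf1a (−0.70), Mcm5 (−0.68), Lig1 (−0.68) and Uhrf1 (−0.67) were the lowest. The others past 1.5-fold were Cdc6 (−0.72), Ccne2 (−0.68), Pola1 (−0.68), E2f1 (−0.66) and Dtl (−0.60). Mcm5 stood at 38.7 CPM in WT and 22.2 in cKO, from 231 and 165 UMIs (ratio 0.573, 0.467 to 0.703). Fen1 (−0.01), Mcm7 (−0.21), Rfc2, Slbp and Cdt1 (−0.23 each) were the highest of the members with 100 UMIs.

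Few deep cells held a large share of the member UMIs behind these sums. There were 54 DP-gated WT cells with over 10000 UMIs, of 1951 (2.77%), and 38 such cKO cells, of 2877 (1.32%). They held 51.0% of the WT and 23.9% of the cKO member UMIs of the gate. In them the members stood at 4308 CPM (4184 to 4435) in WT and 3099 (2963 to 3241) in cKO, above every resting gate and below the cycling ones. Rag1 stood at 288 and 334 CPM in these cells, against 1579 and 1582 in DP cells of 2000 to 10000 UMIs, and Cd4 at 41.5 and 77.2 against 581 and 612. Their 24 cycling genes stood at 254 and 195, and those of the shallower cells at 168 and 154, levels that the gate rule limits, since cells past the cycling rule had been taken out before. Among DP cells of 2000 to 10000 UMIs the members stood at 887 (859 to 916) in WT and 864 (839 to 890) in cKO, and below 2000 UMIs at 938 (867 to 1014) and 1025 (976 to 1076). Without the cells over 10000 UMIs, a limit chosen after these values were seen, the median log2 ratio was 0.03 over the 35 members that still had 20 UMIs (Mcm10, Cdc6 and Pole did not), and 22 of these were above 0. None stayed 1.5-fold lower and Mcm5 then differed by 0.00, but single members did not all come to 0. The interval was clear of 1 for 3 of the 35, and no share over all genes was computed for this count. For Pclaf and Rrm2, which stood at −0.57 and −0.50 in the whole gate, the direction turned. Dtl stayed lower, at −0.49 (ratio 0.687, 0.583 to 0.810), while Pclaf stood higher in cKO, at 0.63 (2.01, 1.30 to 3.19, from 29 and 81 UMIs), and Rrm2 at 0.46 (1.86, 1.07 to 3.34, from 19 and 49 UMIs). Means over cells (−0.02), thinned cells (−0.05) and the first other-lineage rule (−0.02) gave medians near 0 as well.

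Agonist-gated cells showed no shared direction. The median was −0.03 over the 37 members tested (0.00 over all genes), with 15 above 0. Ccne2, with 14 UMIs, was not tested. At least 1.5-fold higher were 3 members, where 1.72% of all genes were, and 0 were 1.5-fold lower (1.25%). They were Rrm2 (1.01), Tk1 (0.82) and Pclaf (0.61). Rrm2 rested on 23 UMIs in WT and 63 in cKO (ratio 2.69, 1.64 to 4.54), and 3 cells held 7 and 22 of them. Tk1 rested on 20 and 48 UMIs, and Pclaf on 45 and 78, of which 3 cells held 24 and 22. Of the members with at least 100 UMIs, the highest were Pclaf (0.61), Lig1 (0.48), Chaf1b (0.34), Cdt1 (0.23) and Tyms (0.21), and the lowest Prim1 (−0.46), Mcm3 (−0.32), Slbp (−0.27), Mcm4 (−0.26) and Rfc2 (−0.22).

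In Foxp3-positive cells 4 members stood well below WT in cKO, and fewer of these cells were cycling. At least 1.5-fold lower were 4 of 38 members, where 4.17% of all genes were. They were Ccne2 (−0.70, from 20 and 6 UMIs), Pclaf (−0.69), Dtl (−0.69) and Rrm2 (−0.65). No member was 1.5-fold higher (2.44%). The median over all members was −0.10, with 12 above 0. Among members with 100 UMIs, Tyms (−0.50) and Tk1 (−0.46) followed Pclaf, Dtl and Rrm2, and the highest were Chaf1b (0.33), Rpa2 (0.27), Mcm7 (0.20), Rfc2 (0.15) and Mcm3 (0.14). Pclaf stood at 185 CPM in WT and 113 in cKO (ratio 0.610, 0.521 to 0.712). Its 490 WT and 247 cKO UMIs lay in 31 and 18 cells, and 3 cells held 154 and 105 of them. For Rrm2, 3 cells held 66 of 169 and 47 of 85 UMIs, and for Dtl 43 of 129 and 20 of 62.

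Cycling cells were 40 of 330 Foxp3-positive cells in WT (12.1%, 8.80 to 16.1) and 20 of 320 in cKO (6.25%, 3.86 to 9.49). The 24 cycling genes stood at 1830 and 787 CPM in the gate, and all 24 were at least 1.5-fold lower in cKO, with a median of −1.03. Among the 290 WT and 300 cKO Foxp3-positive cells that were not cycling, the members summed to 906 and 973 CPM (ratio 1.07, 1.0 to 1.15), and Pclaf had 5 and 4 UMIs. In the 40 and 20 cycling cells the members summed to 5130 and 6671 (1.30, 1.24 to 1.37) and the cycling genes to 5904 and 4216. Fewer cycling cells and less of these RNAs per cell cannot be told apart from the gate sums alone. The split uses the cycling genes themselves, so their low sum in non-cycling cells was set by the rule.

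**Figure D5:**
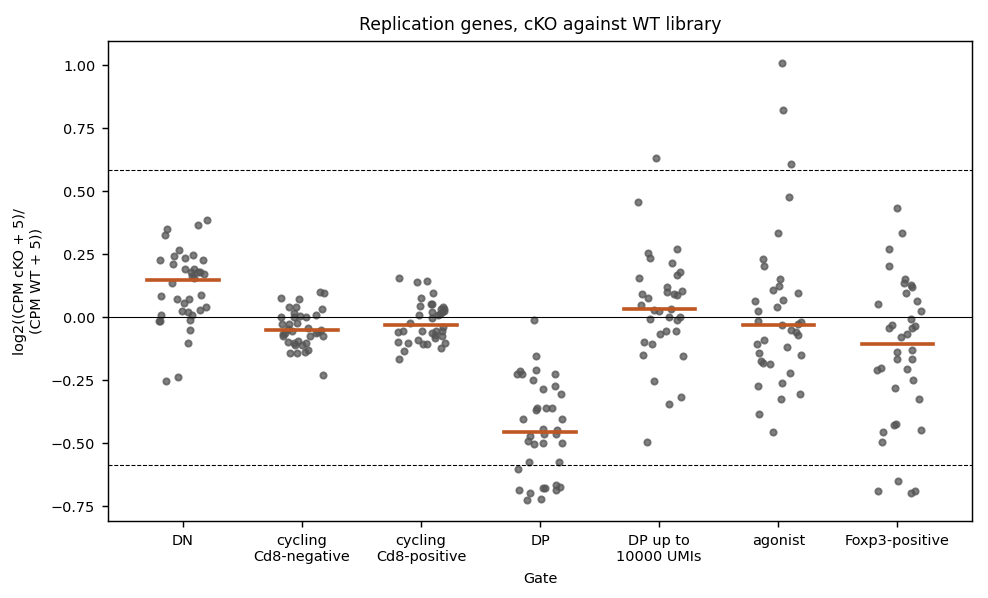
Log2 ratio of cKO over WT levels (CPM plus 5) for each member tested, by gate, with the median as an orange line and dashed lines at 1.5-fold. The cycling gates are tight around 0, the DP points lie below 0, and without cells over 10000 UMIs their median is 0.03, with Pclaf high at 0.63 and Dtl low at −0.49, and the agonist and Foxp3-positive points scatter most.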

How the data were processed

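For 1 WT and 1 cKO library the authors deposited unnormalized UMI counts for each gene and barcode, made with Cell Ranger 6.1.1 per the file headers. CASAVA 1.8 and Seurat 4.0.3 appear in the submitters' processing notes. No source used here names the build of the counts, and coordinates are those of RefSeq promoters on GRCm38.p6.

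Kept barcodes had 500 or more genes, 1000 or more UMIs and a mitochondrial share of 10% or less. Scrublet (scanpy 1.11.5, expected rate 0.06) scored doublets, and its WT threshold of 0.275 served both libraries, because the cKO threshold of 0.636 called 2 cells. This removed 147 WT and 155 cKO cells. Gates were applied to raw counts in a fixed order: other lineage, Foxp3-positive, cycling, agonist, DP and DN. The other-lineage rule as designed used Cst3 and Cd79b too and took 3487 of 6990 WT and 2896 of 7346 cKO cells. These 2 genes were left out once the gate's size had been seen and before any member's level had, leaving 219 and 168 cells, and the designed rule was kept as an alternative.

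UMIs were summed per gate and library and scaled to CPM. Ratios are log2 of levels with 5 CPM added, for genes with at least 20 UMIs over both sides, and a gene counts as higher or lower from 1.5-fold (2-fold for cycling against resting cells). Bracketed intervals are exact Poisson, Clopper-Pearson or exact binomial, without the added constant. They measure counting error only, and UMIs of free RNA are included. The scripts were tested on simulated data. Python 3.11.15 was used.

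The members and lists were chosen with earlier results of these data known. All 38 members are named. Values in every gate were given for 8 of them, the 5 highest and 5 lowest ratios in each gate among members with at least 100 UMIs over both libraries, and up to 3 at either end of the other lists. The comparison of the 2 cycling gates, the limit of 10000 UMIs in the DP gate, resting cells without cycling UMIs, UMIs per cell, the split of Foxp3-positive cells and the counts of single cells by cycling UMIs were added after the data had been seen.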

Additional observations from a re-analysis of the deposited data

Results flagged for a closer look

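For 4 members the ratio of cKO over WT pointed in opposite directions in 2 gates, with both counting intervals clear of 1 and a gap of at least 1 on the log2 scale, limits that were set after the values had been seen. Rrm2 stood at 1.01 in agonist and −0.65 in Foxp3-positive cells, a difference of 1.66. Tk1 stood at 0.82 in agonist and −0.57 in DP cells, a difference of 1.40. Pclaf stood at 0.61 in agonist and −0.69 in Foxp3-positive cells, a difference of 1.30. Lig1 stood at 0.48 in agonist and −0.68 in DP cells, a difference of 1.15. None of these differences was tested, since each gate holds 1 library per genotype. No share over all genes was computed for the count of 4 members, so how far it is particular to them was not tested. The agonist values of Rrm2 and Tk1 rest on 86 and 68 UMIs over both libraries, the DP values of Tk1 and Lig1 were 0.11 and 0.10 without cells over 10000 UMIs, and the Foxp3-positive gate held fewer cycling cells in cKO.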

How the results depend on the processing

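Of 469 comparisons of a summary value with an alternative, 334 stayed within the counting interval or 1.5 times, and 135 moved by more. A median near 0 could change sign within that limit. The Foxp3-positive median of −0.10 stayed within it in all 17 alternatives and was below 0 in 16. No paired analysis was possible because each genotype has 1 library. The cells kept, the gate rules and the added constant mattered most, and the cause of a move was not tested. In what follows medians are log2 over members, counts are members at least 1.5-fold apart in cKO against WT, and pairs are WT then cKO.

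Median ratios of cycling Cd8-negative over DN cells were 1.16 and 1.11 with cells of at least 1000 genes, 2000 UMIs and at most 5% mitochondrial UMIs. They were 1.68 and 1.58 with a cycling limit of 0.025%, 1.29 and 1.13 with 0.1%, and 1.79 and 1.61 with at least 2 UMIs of Mki67 and Top2a as the rule. An added constant of 1 gave 1.69 in WT, one of 20 gave 1.2 and 1.12, means over cells gave 1.84 and 1.62, the first other-lineage rule 1.79 and 1.87, and UMIs per cell 3.05 and 2.78. For cycling Cd8-positive over DP cells the limit of 0.025% gave 2.57 in WT, that of 0.1% gave 1.51 and 1.93, a constant of 1 gave 3.04 in cKO, one of 20 gave 1.5 and 1.70, means over cells 2.75 in WT, the first rule 2.90 and 3.04, and UMIs per cell 5.72 and 6.58. All stayed above 0.

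Cycling Cd8-negative shares were 18.5% and 15.6% with the stricter cell filter, 18.4% and 13.5% with the limit of 0.025%, 9.67% and 7.38% with 0.1%, 14.4% and 11.1% with Mki67 and Top2a, and 2.37% and 1.66% with the first rule (ratio 0.699). Cycling Cd8-positive shares were 13.6% and 11.8% with the stricter filter, 7.40% and 6.23% with 0.1%, and 1.59% and 1.59% with the first rule (ratio 1.0). The first rule is the alternative that ended the lower Cd8-positive share of cKO.

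The DN median was −0.12 and the cycling Cd8-positive median 0.056 with the first rule, which also gave 1 DN member lower, and thinned cells gave 1 DN member higher. The DP median was −0.10 with Mki67 and Top2a, −0.019 with means over cells, −0.047 with thinned cells, −0.016 with the first rule, 0.032 without cells over 10000 UMIs, and 0.049 in cells without a cycling UMI. The count of lower DP members, 10, was 2 with doublets kept, 1 with the limit of 0.025%, and 0 under those 6 settings, with a constant of 20 and at 2-fold. At the other end, the alternatives took this count up to 15 and the DP median down to −0.56. The count of higher DP members was 1 with 0.025%, means over cells or up to 10000 UMIs, and 2 without cycling UMIs. Of 31 DP members with at least 100 UMIs, 19 stood above 0 under at least 1 alternative in which they kept 100 UMIs, up to 0.69 for Pclaf. Of those counted as lower, E2f1 turned to 0.037 with means over cells, Mcm5 to 0.0024 up to 10000 UMIs and 0.19 without cycling UMIs, and Mcm3 to 0.078 without them.

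Agonist members counted as higher, 3, were 1 with doublets kept, a minimum of 100 UMIs, 2-fold or no cycling UMIs, and 0 with 0.025%, 0.1%, Mki67 and Top2a or a constant of 20. Lower ones were 2 with 0.025%, and 1 with Mki67 and Top2a, a constant of 1, thinned cells, the first rule or no cycling UMIs. Foxp3-positive members counted as lower, 4, were 2 with the stricter filter, at least 2 Foxp3 UMIs or the first rule, 1 with a constant of 20, and 0 with doublets kept, at 2-fold or without cycling cells. Higher ones were 1 with a constant of 1, means over cells, no cycling cells or the first rule, and 2 with thinned cells.

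Shares of thinned cells depended on the number of member UMIs asked for. From 3 UMIs they were 59.4% and 57.5% (DN), 93.0% and 90.5% (cycling Cd8-negative), 92.6% and 90.3% (cycling Cd8-positive), 27.5% and 27.4% (DP), 29.5% and 26.7% (agonist) and 29.0% and 24.2% (Foxp3-positive). From 8 UMIs they were, in that order, 13.2% and 15.6%, 78.1% and 74.0%, 79.3% and 74.95%, 1.62% and 0.675%, 6.23% and 6.08%, and 5.92% and 5.73%. At 3000 UMIs a cell they were 47.5% and 49.8%, 91.1% and 90.1%, 94.5% and 92.9%, 17.1% and 12.5%, 21.8% and 22.3%, and 16.7% for Foxp3-positive WT cells. The medians of mitosis-rich over mitosis-poor cells were −0.27, −0.28, −0.61 and −0.55 with all 24 cycling genes. Depth limits the agonist and Foxp3-positive gates most, where 26 and 29 of the 38 members had 100 UMIs.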
